A study of Homo sapiens with 31 samples.

Results

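The genes described here are the nuclear-encoded subunits of the mitochondrial respiratory chain in Caco-2, an established cell line from a human colorectal tumour whose confluent layers take on features of small-intestinal enterocytes. A gene was taken as a member when its array row named that gene alone, when its symbol belonged to one of the subunit families of complexes I to V, and when it was neither an assembly factor nor a pseudogene. The family symbols were those starting with NDUFA, NDUFB, NDUFC, NDUFS, NDUFV, UQCR, COX4I, COX5, COX6, COX7, COX8 or ATP5, together with SDHA, SDHB, SDHC, SDHD and CYC1. This gave 74 of the 22395 genes measured: 31 of complex I, 2 of complex II (SDHC and SDHD), 8 of complex III, 17 of complex IV and 16 of complex V. The complex V members include ATP5IF1, the ATPase inhibitory factor, which the rule takes in by its symbol though it is not a subunit. SDHA, SDHB and UQCRFS1 were not analysed here.

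Cells were cultured for 21 days on static Transwell membranes or in gut-on-chip devices, where medium flowed at 100 µL/h and the calculated shear was near 0.002 dyne/cm2. For the last 6 h they received a nanomaterial dispersed in culture medium, or the same dispersion medium without metal. The Transwell groups were TiO2 at 50 µg/mL, its TiO2 control medium, ZnO at 10 µg/mL and its ZnO control medium. The chip groups were TiO2 at 100 µg/mL, its TiO2 control medium, ZnO at 80 µg/mL and its ZnO control medium. The labels state that these concentrations were chosen by dosimetry modelling to deposit equal doses in both systems, and that flow in the chip was stopped during the 6 h. Each group had 4 arrays except Transwell TiO2, which had 3. Replicates are numbered as in the labels, which do not say whether they were separate cultures, so p-values measure the spread between these arrays and that spread may be technical. All groups were of one cell line at passages 29 to 45, which limits what they stand for as a model of the intestine.

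The respiratory chain sits in the inner mitochondrial membrane. Complex I accepts electrons from NADH and complex II from succinate, complex III passes them to cytochrome c, and complex IV (cytochrome c oxidase) reduces oxygen. Complexes I, III and IV pump protons, and complex V (ATP synthase) lets the protons return through a ring of c subunits to drive ATP synthesis. All but a few of the proteins are encoded in the nucleus. Absorptive enterocytes use the ATP for ion and nutrient transport, and the transcription factors NRF1, GABP (an ETS family factor) and YY1 are known to bind promoters of many of these genes.

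Values are the deposited log2 values, in which a difference of 1 is a doubling. They show relative RNA abundance of 1 gene between arrays and are not compared between genes. In 67 members the mean of each of the 8 groups lay above the median of all probe sets on the arrays of that group. Of the others, COX6A1, COX7B2 and COX8C lay below it in all 8 groups, COX6B2 in 7, ATP5MGL in 6, ATP5MC2 in 2 and COX7A1 in 1, and their values may be largely background. The row of COX6A1 alone averaged 2.75 over all groups, while a probe set that names it together with the pseudogene COX6A1P2 was at 11.96. The 2 rows disagreed, and neither is taken as the level of this gene. The row of COX6A1 alone stays in the counts and medians of the members. UQCRHL is nearly identical in sequence to UQCRH, and its value is uncertain for that reason.

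Promoters are printed for the members, other than ATP5F1D, with the largest differences between chip and Transwell, so that the sequence stands beside the change. Each is the 120 bases immediately upstream of the annotated start of transcription, in RefSeq on GRCh38.p14, written in the direction of the gene. ATP5MC1 was at chr17:48892667-48892786 on the plus strand, ATP5F1A at chr18:46104228-46104347 on the minus strand, NDUFV2 at chr18:9102579-9102698 on the plus strand and NDUFA1 at chrX:119871712-119871831 on the plus strand. Capitals mark a match to the ETS motif on either strand.
ATP5MC1: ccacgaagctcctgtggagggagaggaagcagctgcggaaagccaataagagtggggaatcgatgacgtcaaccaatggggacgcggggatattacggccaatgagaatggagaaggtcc
ATP5F1A: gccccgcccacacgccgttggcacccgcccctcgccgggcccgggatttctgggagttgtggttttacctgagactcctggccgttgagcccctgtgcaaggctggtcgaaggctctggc
NDUFV2: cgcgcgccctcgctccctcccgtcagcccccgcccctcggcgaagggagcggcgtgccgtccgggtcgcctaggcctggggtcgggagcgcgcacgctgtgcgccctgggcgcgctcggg
NDUFA1: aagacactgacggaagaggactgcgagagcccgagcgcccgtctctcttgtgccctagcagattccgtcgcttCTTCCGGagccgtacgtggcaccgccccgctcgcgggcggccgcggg

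Of the 74 members, 60 were matched to a RefSeq promoter of 300 bases (250 before the start and 50 after it). The NRF1 motif GCGCATGC was found on either strand in 12 of the 60 member promoters (20%), against 3.27% of all 27305 promoters of this length. The ETS motif CCGGAAG was found in 16 (26.7%) against 10.7%, and the YY1 motif AAGATGGCG in 7 (11.7%) against 1.85%. In all 27 member promoters held at least 1 of the motifs, and 0 had overlapping matches of different motifs. The 4 promoters above therefore differed among themselves in this respect, since NDUFA1 held 1 ETS match and the others held none of the motifs. These matches are descriptions of the sequence and were not tested for binding.

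The 31 arrays had medians between 3.243 and 3.333, and pairs of arrays correlated between 0.9416 and 0.9867 over all genes. Epithelial identity was checked first. EPCAM (11.55 to 11.65) and CDH1 (12.01 to 12.18), which mark epithelial cells, had group means within a narrow range in all 8 groups. Other markers of the 13 measured for enterocytes and epithelium did not. Over both control media 3 were higher in the chip than on Transwell and 6 lower, such as KRT20 (0.96) and SI (−3.36). PTPRC, the pan-leukocyte marker, was at 1.48 to 1.68, below the array medians. In every group 5 to 7 of the 12 stromal, endothelial and immune markers lay below them. Others lay above, such as COL1A1 (group means 5.39 to 6.13) and VIM (4.17 to 5.79). Some arrays stood apart. Each array was compared with the others of its system and nanomaterial, over the genes brighter than the median single-gene probe set. By this measure 10 of 31 resembled the opposite group (exposed or control) at least as closely as their own. The widest margins were in chip TiO2 replicate 4 (mean correlation of deviations −0.357 with its own group and −0.052 with the other) and chip TiO2 control replicate 4 (−0.275 and −0.091). Results on the chip TiO2 and chip TiO2 control arrays are therefore given with and without both. Within groups, the median standard deviation of the members was 0.134 on Transwell and 0.171 in the chip, against 0.146 and 0.236 over the genes brighter than the median single-gene probe set and 0.199 and 0.256 over all genes.

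The first comparison asked how the chain differs between unexposed cells of the chip and of Transwell, over both control media. The respiratory chain did not move as 1 block: members rose and fell within the same complex, and 13 of the 74 were higher in the chip and 8 lower at an adjusted p below 0.05 (limma's moderated test with Benjamini-Hochberg adjustment over all genes, used for every adjusted p here). ATP5MC1, a gene of the ATP synthase c ring, rose most, by 0.88 ± 0.11 (SE, 8 arrays in each system), and ATP5F1D, the delta subunit of the F1 central stalk, fell most, by 0.66 ± 0.10. The 21 members called were 28.4% of the 74, against 33.5% of all genes (14.6% higher and 18.9% lower), so the share of members that changed was not above the background of this comparison. Among genes brighter than the median single-gene probe set, a closer match in signal, 56.0% passed. The changes were also small. No member that passed reached 2-fold and the median absolute difference was 0.36, whereas 16.3% of all genes that passed reached 2-fold and their median was 0.54. Over all 74 members the median difference was 0.057, and 41 lay above 0; over all genes the median was −0.004. Without the chip TiO2 and chip TiO2 control arrays named above, 22 members passed, 14 higher and 8 lower: COX7C (−0.16, adjusted p = 0.0567) was lost, and NDUFA10 (0.23) and NDUFB10 (−0.22) were gained. Because these are bulk RNA samples, fewer cells of a type and less RNA per cell cannot be told apart.

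Complex V held the largest changes in both directions, with 2 of its 16 members higher and 4 lower. Its c ring is encoded by 3 genes, ATP5MC1, ATP5MC2 and ATP5MC3, whose products differ in the import sequence but give the same mature protein. ATP5MC1 read 6.45, 6.59, 6.71 and 6.42 in the 4 Transwell TiO2 control arrays and 5.94, 6.13, 6.53 and 6.59 in the Transwell ZnO control arrays. In the chip it read 6.78, 6.88, 7.03 and 7.40 in TiO2 control and 7.63, 7.49, 7.66 and 7.49 in ZnO control. Every chip array was therefore above every Transwell array, and the adjusted p was 3.14e-07. ATP5MC3 went the other way, from 7.67, 7.60, 7.74 and 7.68 (TiO2 control) and 7.94, 7.98, 7.93 and 7.95 (ZnO control) on Transwell to 7.43, 7.46, 7.63 and 7.32, and 7.30, 7.65, 7.49 and 7.23, in the chip. It fell by 0.37 ± 0.07 (adjusted p = 6.26e-05), with the highest chip arrays inside the Transwell range. ATP5MC2 was dim, with group means of 3.21 to 3.66, and was 0.27 ± 0.10 higher in the chip (adjusted p = 0.0301), with overlapping groups. The 3 genes of the c ring thus differed in direction.

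The F1 head, where ATP is made, was represented by its alpha (ATP5F1A), beta (ATP5F1B), gamma (ATP5F1C) and delta (ATP5F1D) subunits. ATP5F1A read 10.05, 9.82, 9.72 and 9.96 in Transwell TiO2 control and 9.83, 9.86, 9.85 and 9.89 in Transwell ZnO control, against 9.33, 9.23, 9.39 and 9.31, and 9.15, 9.38, 9.38 and 9.02, in the chip. All 8 chip arrays lay below all 8 Transwell arrays, and the gene fell by 0.60 ± 0.07 (adjusted p = 3.57e-08). ATP5F1D, at 9.22, 9.14, 9.19 and 8.91 in Transwell TiO2 control and 8.37, 8.45, 8.72 and 8.80 in Transwell ZnO control, read 7.83, 8.43, 8.26 and 8.13, and 8.05, 8.42, 8.44 and 7.98, in the chip (adjusted p = 6.27e-06). The Transwell arrays of the ZnO control overlapped the chip arrays in this gene and those of the TiO2 control did not. ATP5F1B, the catalytic subunit, was lower by only 0.13 ± 0.05 (adjusted p = 0.0487), from 11.84 to 11.97 on Transwell to 11.68 to 11.82 in the chip. ATP5F1C, the gamma subunit of the rotor, differed by −0.15 ± 0.08 (adjusted p = 0.182). The ATP5F1B groups did not overlap, but the call of this gene was kept in only 9 of 26 alternative settings.

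**Figure D1:**
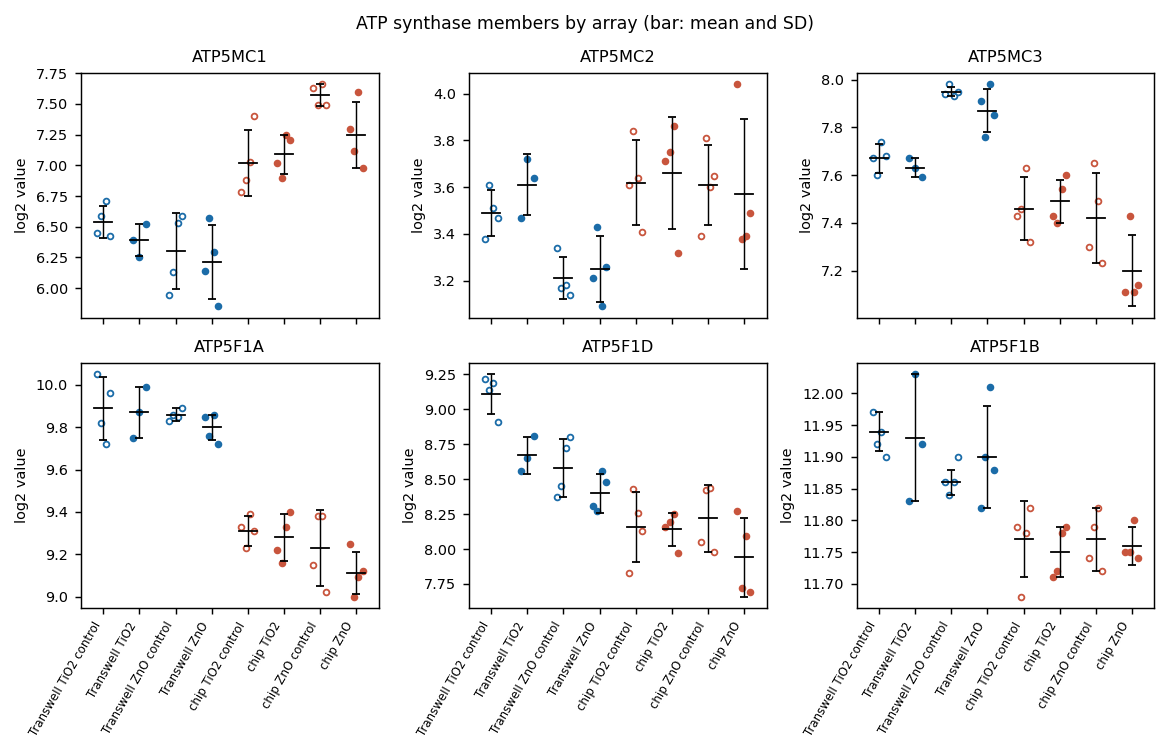
Log2 values of 6 ATP synthase genes by array (points; open for control media, filled for exposed cells; blue Transwell, red chip), with the mean and SD of each of the 8 groups. ATP5MC1 is higher and ATP5F1A lower in every chip array than in every Transwell array, while ATP5MC3 and ATP5F1D are lower in the chip with some overlap and ATP5MC2 is dim throughout (3.09 to 4.04).

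In complex I, 8 of 31 members were higher in the chip and 3 lower. Of the 5 measured core subunits, which carry the redox centres or form the quinone-binding region, NDUFV2 and NDUFS7 rose, NDUFS3 fell, and NDUFV1 and NDUFS1 did not pass. NDUFV2, an iron-sulphur subunit of the NADH-oxidising arm, read 5.43, 5.27, 5.08 and 5.22 (TiO2 control) and 5.45, 5.43, 5.59 and 5.81 (ZnO control) on Transwell. In the chip it read 5.75, 6.18, 6.09 and 5.83, and 5.79, 5.98, 6.09 and 6.13, a rise of 0.57 ± 0.12 (adjusted p = 0.000261). A single Transwell array, ZnO control replicate 4, reached into the chip range. NDUFS7, which holds the last iron-sulphur cluster before ubiquinone, was 0.30 ± 0.08 higher (adjusted p = 0.00327). NDUFS3, a subunit of the same region, was 0.27 ± 0.08 lower (adjusted p = 0.0106).

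The supernumerary subunits of complex I, which surround the core and are needed for its assembly and stability, gave 6 of 26 higher and 2 lower. NDUFA1, a small subunit of the membrane arm, read 6.41, 6.55, 6.09 and 6.70 (TiO2 control) and 6.54, 6.76, 6.77 and 6.60 (ZnO control) on Transwell, and 7.12, 7.08, 7.26 and 7.10, and 6.88, 7.26, 6.80 and 7.09, in the chip. Chip and Transwell did not overlap, and the rise was 0.52 ± 0.09 (adjusted p = 1.98e-05). NDUFB3, also of the membrane arm, was 0.45 ± 0.09 higher (adjusted p = 0.00022); it stood at 5.25 to 5.73 in Transwell TiO2 control, below all other control arrays, whereas Transwell ZnO control (5.92 to 6.16) overlapped the chip (6.01 to 6.40). NDUFA6, which binds the acyl carrier protein NDUFAB1, rose by 0.39 ± 0.07, and NDUFA12, of the matrix arm, by 0.36 ± 0.08. NDUFA7 (0.28) and NDUFS5 (0.25) were the other 2 that rose. The 2 that fell were NDUFA8, which faces the intermembrane space, by 0.40 ± 0.10 (adjusted p = 0.00262), and NDUFA5, of the matrix arm, by 0.29 ± 0.08 (adjusted p = 0.00495).

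Complexes II, III and IV gave 4 calls in the mean of both media, 3 higher and 1 lower. The membrane anchors of succinate dehydrogenase differed by 0.12 ± 0.06 (SDHC, adjusted p = 0.162) and 0.11 ± 0.07 (SDHD, adjusted p = 0.236). In complex III, the core proteins UQCRC1 (−0.09) and UQCRC2 (0.00) and cytochrome c1, CYC1 (0.08), did not pass, and only UQCRQ, a small accessory subunit, was called (0.30 ± 0.11, adjusted p = 0.0256). In complex IV, 2 of 17 rose and 1 fell. COX7A2, the form of subunit VIIa found in most tissues, was 0.25 ± 0.09 higher (adjusted p = 0.021), and COX7C was 0.18 ± 0.06 lower (adjusted p = 0.0251). COX6B2, known as a testis form, passed at 0.40 ± 0.10 (adjusted p = 0.00176), but 7 of its group means were below the array medians (2.50 to 3.29 over the 8 groups), so that this is a difference near background.

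Several complex IV subunits come as paralogs of which 1 form is widespread and another restricted to certain tissues. The widespread COX4I1 had group means of 10.55 to 10.82 and differed by 0.12 ± 0.07 between the systems (adjusted p = 0.21). COX4I2, known for its induction at low oxygen in lung, differed by 0.03 ± 0.18 (adjusted p = 0.927), with single arrays from 2.86 to 4.65. The differences were 0.05 ± 0.08 for COX6B1, −0.21 ± 0.23 for the muscle form COX6A2, 0.14 ± 0.09 for COX7A2L, 0.27 ± 0.13 for the muscle form COX7A1, 0.10 ± 0.10 for COX7B, −0.07 ± 0.11 for COX7B2, 0.00 ± 0.09 for COX8A and −0.05 ± 0.12 for COX8C, and none passed (adjusted p from 0.139 to 0.981). No exchange of a widespread for a restricted form was detectable in the mean of both media.

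Calls close to the threshold depended on single arrays. The ATP5MC2 call was kept in 18 of 25 alternative settings and was lost without chip TiO2 control replicate 2, Transwell TiO2 control replicate 1, Transwell ZnO control replicate 4 or chip ZnO control replicate 2. NDUFA7 kept its call in 18 of 26, losing it without Transwell TiO2 control replicate 3, chip TiO2 control replicate 2 or 3, Transwell ZnO control replicate 2, or chip ZnO control replicate 2 or 4. COX7C kept it in 19 of 26, losing it without Transwell TiO2 control replicate 2, chip TiO2 control replicate 1 or 4, or replicate 4 of either ZnO control. UQCRQ kept it in 20 of 26, losing it without chip TiO2 control replicate 2, Transwell ZnO control replicate 1, or chip ZnO control replicate 2 or 4. COX7A2 kept it in 24 of 26, losing it without Transwell ZnO control replicate 1 or chip ZnO control replicate 2. The ATP5F1B call was lost without any 1 of the 16 control arrays other than chip TiO2 control replicate 4 and chip ZnO control replicate 3.

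**Figure D2:**
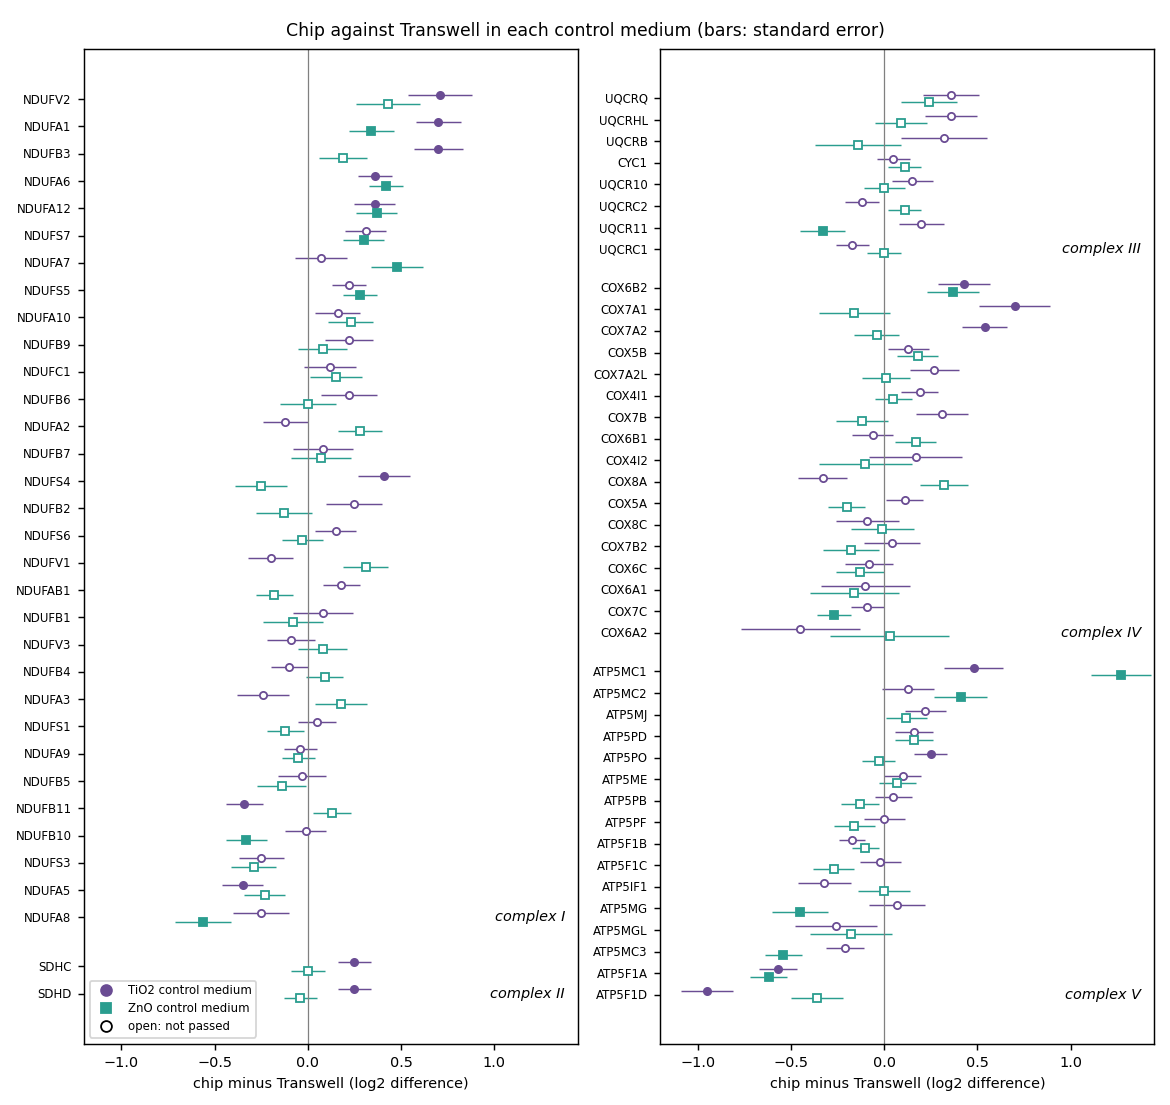
Difference between chip and Transwell control cells for each of the 74 members by complex, as a log2 difference with its standard error, in TiO2 control medium (purple circles) and ZnO control medium (green squares); filled symbols passed an adjusted p below 0.05. Changes run in both directions within complexes I and V, from −0.95 (ATP5F1D, TiO2 control) to 1.27 (ATP5MC1, ZnO control); no difference between the media passed the test.

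The same contrast was taken over the exposed arrays, which are other samples than the control arrays. They entered the same fit, and the labels do not say whether replicates were separate cultures. They are therefore not an independent replication. Over TiO2-exposed and ZnO-exposed cultures together, 24 members passed between chip and Transwell, 13 higher and 11 lower, against 33.2% of all genes. Of the 21 members called in the control media, all 21 had the same sign there and 16 passed. ATP5MC1 was 0.87 ± 0.12 higher (adjusted p = 6.98e-07), ATP5F1A differed by −0.64 ± 0.07 (adjusted p = 2.6e-08), and NDUFA1 0.44 ± 0.09 higher (adjusted p = 0.000255). The 5 that were not called over exposed arrays were ATP5MC2 (0.19), NDUFA12 (0.09), NDUFA7 (0.20), NDUFS3 (−0.19) and UQCRQ (0.18). Doses in the medium differed between the systems in these cultures.

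Each control medium was then taken alone. In TiO2 control medium 13 members were higher in the chip and 4 lower, where 22.9% of all genes were called (9.42% higher and 13.5% lower). In ZnO control medium 9 were higher and 7 lower, where 27.2% of all genes were called (12.3% and 14.9%). The lists shared only 6 members, NDUFA1, NDUFA6, NDUFA12, COX6B2, ATP5MC1 and ATP5F1A, all with the same sign, which was 35.3% of the TiO2 control list and 37.5% of the ZnO control list. For all genes the shares were 66.1% and 55.5%, with 3387 genes in common. The difference between chip and Transwell had the same sign in both media in 43 of 74 members, and the 2 sets of differences correlated at r = 0.41 over the members and r = 0.75 over all genes; these points share arrays and genes are not independent replicates. Without both chip TiO2 arrays that stood apart, 15 members passed in TiO2 control medium, 10 higher and 5 lower, with ATP5MC1 (0.35), ATP5PO (0.25), COX6B2 (0.33), NDUFA5 (−0.30), SDHC (0.26) and SDHD (0.25) no longer called (adjusted p from 0.0539 to 0.13). COX7A2L (0.38), COX7B (0.40), COX8A (−0.31) and NDUFS3 (−0.36) were called in their place. The TiO2 control count was 9 without Transwell TiO2 control replicate 4 and the ZnO control count was 10 without chip ZnO control replicate 4.

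Of the members called in TiO2 control medium but not in ZnO control medium, 11 in number, 8 were higher in the chip and 3 lower. NDUFV2 (0.71 ± 0.17), NDUFB3 (0.70 ± 0.13) and COX7A2 (0.54 ± 0.12) were higher in the chip with no overlap between the groups. NDUFS4, an accessory subunit of the NADH-oxidising arm, rose by 0.41 ± 0.14 (adjusted p = 0.0371), and both complex II anchors passed narrowly, SDHC at 0.25 ± 0.09 (adjusted p = 0.0486) and SDHD at 0.25 ± 0.09 (adjusted p = 0.0467). COX7A1 (0.70) and ATP5PO (0.25), the latter the stalk subunit that connects the F1 head to the membrane part, also passed. Lower in the chip were ATP5F1D (−0.95 ± 0.14), NDUFA5 (−0.35 ± 0.11) and NDUFB11, an X-linked membrane-arm subunit (−0.34 ± 0.10).

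In ZnO control medium ATP5MC1 differed most, at 1.27 ± 0.16 (adjusted p = 3.93e-07), the only difference of a member above 2-fold in the 12 comparisons. Of the members called in this medium but not in TiO2 control medium, 4 were higher and 6 lower. NDUFA7 (0.48 ± 0.14), ATP5MC2 (0.41 ± 0.14), NDUFS7 (0.30 ± 0.11) and NDUFS5 (0.28 ± 0.09) were higher. Lower were NDUFA8 (−0.56 ± 0.15), ATP5MC3 (−0.54 ± 0.10), ATP5MG (−0.45 ± 0.15), a membrane subunit of ATP synthase, NDUFB10 (−0.33 ± 0.11), UQCR11 (−0.33 ± 0.12) and COX7C (−0.27 ± 0.09). Their adjusted p-values ran from 7.82e-05 (ATP5MC3) to 0.0474 (NDUFS7).

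A call in 1 medium and not in the other does not show a difference, so the difference itself was tested. No member passed (0 of 74; 21 had an unadjusted p below 0.05), where 2.74% of all genes did. The members with the smallest p were ATP5MC1 (0.79 ± 0.23 larger in ZnO control medium, adjusted p = 0.0524), NDUFB11 (0.48 ± 0.14, adjusted p = 0.0525), COX8A (0.64 ± 0.19, adjusted p = 0.0565), COX7A2 (−0.58 ± 0.17, adjusted p = 0.061) and NDUFS4 (−0.67 ± 0.20, adjusted p = 0.0728). These lie just past the threshold, and single arrays moved the count: it was 1 without chip TiO2 control replicate 2 or 4 or chip ZnO control replicate 1, 2 without chip ZnO control replicate 2 or Transwell ZnO control replicate 3, and 3 without Transwell ZnO control replicate 4. Without both chip TiO2 arrays that stood apart, ATP5MC1 (0.92, adjusted p = 0.0192), COX8A (0.63, adjusted p = 0.0227) and NDUFB11 (0.49, adjusted p = 0.0391) passed.

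The control media were compared directly within each system. On Transwell, 7 members were higher in ZnO control medium and 3 lower, where 6.64% of all genes were called (2.88% higher and 3.76% lower). These 8 arrays are also the Transwell side of the comparisons between chip and Transwell, so the results are not independent. Either control medium was used only with the arrays of its own nanomaterial. In all comparisons by medium, an effect of the medium therefore cannot be told apart from a difference between these sets of arrays. COX8A, a small subunit of cytochrome c oxidase, fell most, from 10.72, 10.84, 10.86 and 10.75 in TiO2 control to 9.80, 9.88, 10.16 and 10.06 in ZnO control, a difference of −0.82 ± 0.13 (adjusted p = 0.000248). In the chip it read 10.34, 10.62, 10.48 and 10.43 in TiO2 control and 10.08, 10.39, 10.30 and 10.41 in ZnO control. All chip control arrays lay below the Transwell TiO2 control, and ZnO control replicate 1 lay within the range of the Transwell ZnO control. ATP5F1D (−0.53 ± 0.14) and NDUFB11 (−0.37 ± 0.10) were the others that were lower.

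COX7A2 rose most between these Transwell media, from 5.68, 5.63, 5.45 and 5.59 to 5.96, 6.51, 6.12 and 6.14 (0.59 ± 0.12, adjusted p = 0.00267). The chip control arrays in both media (5.99 to 6.33) lay within the range of the Transwell ZnO control and above the Transwell TiO2 control. The other rises were NDUFB3 (0.50 ± 0.13), UQCR11 (0.41 ± 0.12), COX5A (0.38 ± 0.10), NDUFS6 (0.37 ± 0.11), the acyl carrier NDUFAB1 (0.35 ± 0.10) and ATP5PO (0.35 ± 0.09), with adjusted p from 0.016 to 0.0423. The count moved with single arrays: leaving out 1 array at a time gave 3 to 8 members, with 3 without Transwell TiO2 control replicate 2, 4 without Transwell TiO2 control replicate 3 or Transwell ZnO control replicate 2, 5 without Transwell ZnO control replicate 1 or 3, and 6 without Transwell TiO2 control replicate 1 or 4.

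In the chip, 0 of 74 members differed between the control media (4 at an unadjusted p below 0.05), where 0.058% of all genes did. ATP5MC1 had the smallest p, 0.55 ± 0.16 higher in ZnO control (adjusted p = 0.201), with arrays that did not overlap. NDUFA2 (0.36), NDUFA3 (0.31), COX7A1 (−0.40) and NDUFA6 (0.18) followed with adjusted p from 0.297 to 0.546. Without both chip TiO2 arrays that stood apart, ATP5MC1 passed at 0.67 (adjusted p = 0.0325), as 1 member did without chip TiO2 control replicate 4 alone.

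**Figure D3:**
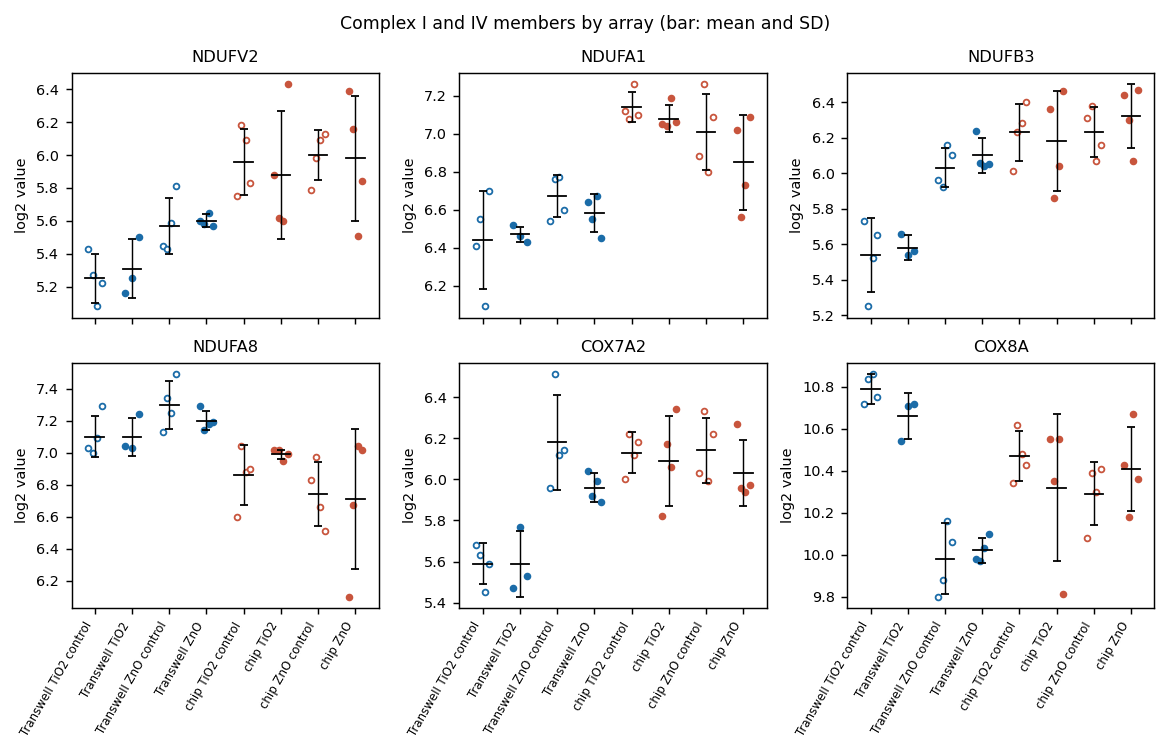
Log2 values of 6 members of complexes I and IV by array (open points control media, filled points exposed cells; blue Transwell, red chip), with group mean and SD. NDUFA1 is higher in the chip control arrays of either medium than in the Transwell controls, whereas NDUFB3, COX7A2 and COX8A set the Transwell TiO2 arrays apart from the Transwell ZnO arrays, and chip TiO2 replicate 4 is low in COX8A (9.81).

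No member passed the test after exposure to either nanomaterial. After ZnO, 0 of 74 members passed on Transwell (2 at an unadjusted p below 0.05) and 0 in the chip (9 at an unadjusted p below 0.05), where 0.0% and 0.272% of all genes were called. After TiO2, 0 passed on Transwell (3 unadjusted) and 0 in the chip (5 unadjusted), where 0.0% of all genes were called in either system. Without both chip TiO2 arrays that stood apart, 0 members passed in the chip as well. The standard error of a member's difference was 0.12 at the median for chip ZnO and 0.13 for Transwell TiO2. Differences of several standard errors in single members did not pass either at this number of arrays. Examples were ATP5PB after ZnO in the chip (−0.34 ± 0.10, adjusted p = 0.164) and COX6C after TiO2 on Transwell (−0.43 ± 0.14). The counts of 0 therefore do not exclude changes of that size in single members.

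The direction of the values after ZnO in the chip was uneven. Of the 74 members, 56 lay below 0 (75.7%), with a median difference of −0.114, while 50.0% of all genes lay below 0 with a median of 0.00, and genes brighter than the median single-gene probe set had a median of −0.004. In complex V 15 of 16 members were below 0 (median −0.147), in complex I 25 of 31 (median −0.124), in complex III 6 of 8 (median −0.073), in complex IV 9 of 17 (median −0.021) and in complex II 1 of 2. The complex IV median rested on dim rows: COX6A1 (0.46), COX7B2 (0.46), COX6B2 (0.42) and COX8C (0.26) lay near background, and with dim genes left out 7 of 10 complex IV members were below 0 with a median of −0.106. The complex V member above 0 was the inhibitory factor ATP5IF1 (0.1). All 5 core subunits of complex I were below 0, from −0.29 (NDUFV1) to −0.02 (NDUFS3 and NDUFV2). The members are not independent of each other, the shift is about the size of 1 standard error per gene, and it has no test of its own here. Leaving out 1 array at a time gave 52 to 59 members below 0 and a median from −0.127 to −0.07, the smallest shift being without chip ZnO control replicate 2. On Transwell, at a lower concentration in the medium, 48 of 74 members lay below 0 with a median of −0.02. There 50.0% of all genes and 43.9% of the brighter genes lay below 0. With 1 array left out at a time, 40 to 50 members did.

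The members with the smallest p after ZnO in the chip were ATP5PB, COX6B2, COX7B2, NDUFS6 and NDUFAB1. ATP5PB, subunit b of the ATP synthase peripheral stalk, read 8.38, 8.19, 8.38 and 8.05 in control and 7.78, 7.90, 7.91 and 8.05 after ZnO (−0.34 ± 0.10, adjusted p = 0.164). The lowest control and the highest exposed value were both 8.05 when rounded, and before rounding the groups did not overlap. NDUFS6, a zinc-binding accessory subunit of complex I, read 6.71, 6.92, 6.66 and 6.55 in control and 6.49, 6.40, 6.42 and 6.32 after ZnO (−0.30 ± 0.11, adjusted p = 0.316). NDUFAB1 differed by −0.27 ± 0.10 (adjusted p = 0.354), and COX6B2 (0.42) and COX7B2 (0.46) by positive values near background. ATP5MC1, which was higher in the chip than on Transwell, read 7.30, 7.12, 7.60 and 6.98 after ZnO against 7.63, 7.49, 7.66 and 7.49 in control (−0.32 ± 0.16, adjusted p = 0.548).

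**Figure D4:**
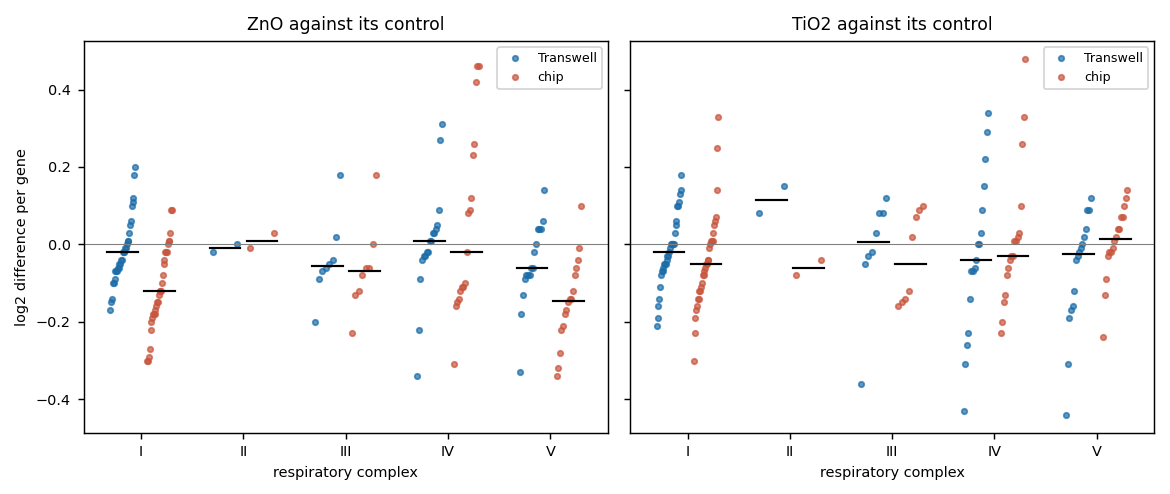
Log2 difference of each of the 74 members after ZnO (left) and TiO2 (right) against the control medium of the same system, by complex (I to V; blue Transwell, red chip; line, median of the complex). After ZnO in the chip the medians of complexes I and V lie at −0.124 and −0.147, and no single member passed the test in any of the 4 comparisons.

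The members with the smallest p after ZnO on Transwell were COX6B2 (0.31), COX6C (0.27), UQCR10 (−0.20), COX7A2 (−0.22) and NDUFV3 (0.20), with adjusted p of 1 in each. After TiO2 on Transwell they were COX6C, ATP5F1D, COX6B1, NDUFB4 and ATP5ME. COX6C, a small subunit of cytochrome c oxidase, read 4.60, 4.71, 4.90 and 4.66 in control and 4.30, 4.16 and 4.39 after TiO2 (−0.43 ± 0.14). ATP5F1D read 9.22, 9.14, 9.19 and 8.91 in control and 8.56, 8.65 and 8.81 after TiO2 (−0.44 ± 0.16). In both genes the exposed arrays lay below all control arrays, and the adjusted p was 1. After TiO2 in the chip the smallest p belonged to COX7B2 (0.48), NDUFA2 (0.33), ATP5PO (−0.24), NDUFB4 (0.25) and NDUFS4 (−0.30), with adjusted p from 0.369 to 0.558.

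The difference in response between the culture systems was tested directly. For ZnO, 0 of 74 members passed (2 at an unadjusted p below 0.05) where 0.00447% of all genes did, and for TiO2 0 of 74 (5 unadjusted) where 0.0% did, also without both chip TiO2 arrays that stood apart. The smallest p was that of ATP5PB for ZnO (−0.38 ± 0.14, adjusted p = 0.782) and of NDUFB4, a membrane-arm subunit of complex I, for TiO2 (0.45 ± 0.15, adjusted p = 0.766). Concentrations differed between the systems, at 80 and 10 µg/mL ZnO and 100 and 50 µg/mL TiO2 in chip and Transwell.

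Each array was also described by the median deviation of the members of a complex from their means over all 31 arrays. Complex V lay highest in Transwell ZnO control (0.001 to 0.205) and lowest in chip ZnO (−0.164 to −0.056), without overlap. These groups differ in both culture system and exposure. Chip ZnO overlapped chip ZnO control (−0.095 to 0.053) and lay below Transwell ZnO (0.015 to 0.091). Transwell ZnO lay within the range of Transwell ZnO control. Complex I lay between −0.129 and 0.036 in Transwell TiO2 control and between 0.029 and 0.133 in chip ZnO control, with overlapping ranges. These groups differ in both system and medium. Chip and Transwell also overlapped within each control medium. Complex IV was lower in Transwell TiO2 control (−0.128 to −0.003) and Transwell TiO2 (−0.200 to −0.001) than the mean of all arrays. The 2 members of complex II were lowest in Transwell TiO2 control (−0.290 to −0.096).

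**Figure D5:**
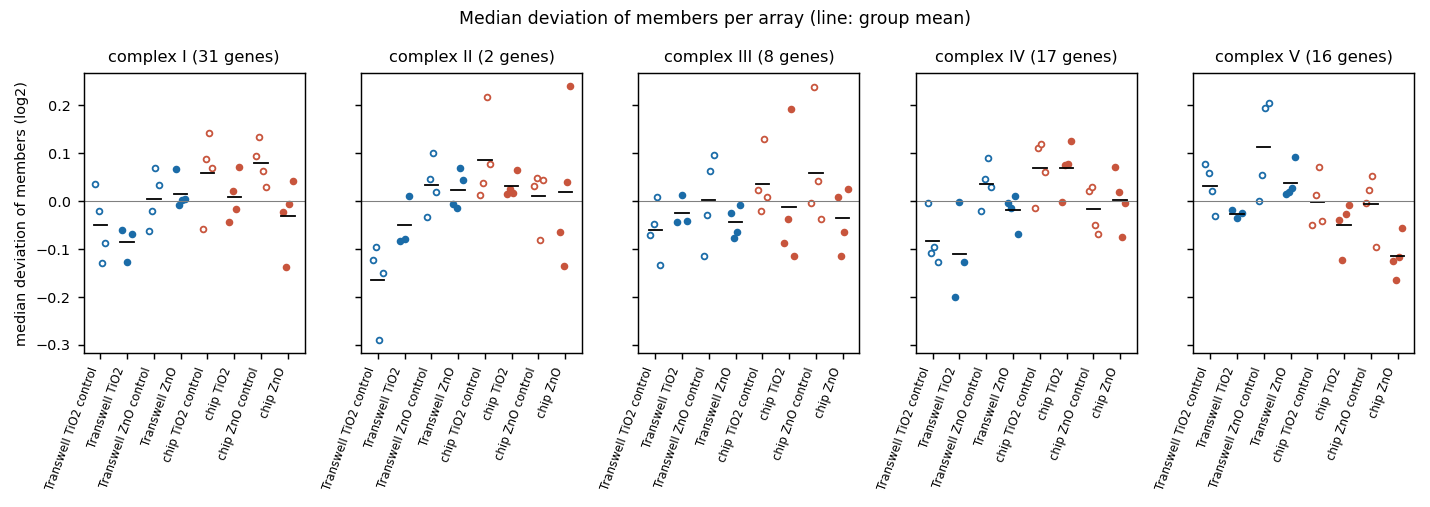
Median deviation of the members of each complex from their own means over 31 arrays, per array (points; open control media, filled exposed; blue Transwell, red chip; line, group mean), on a log2 scale. Complex V lies between −0.164 and −0.056 in chip ZnO, which overlaps chip ZnO control (−0.095 to 0.053). It lies between 0.001 and 0.205 in Transwell ZnO control, which differs from chip ZnO in both system and exposure. Complex II is lowest in Transwell TiO2 control.

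Genes that serve the respiratory chain were counted from lists drawn up with earlier results of these data known, in the comparison of chip against Transwell over both control media. The counts of all lists in this comparison stand beside 14.6% of all genes higher and 18.9% lower, and 56.0% of the brighter genes called in either direction. Among assembly factors of complex I, 1 of 18 was higher and 7 lower, and among those of complexes II to V, 3 of 29 higher and 13 lower. COX11, a copper chaperone of cytochrome c oxidase, fell by 0.92 ± 0.08, and COA7, another factor of complex IV assembly, differed by −1.14 ± 0.12. ACAD9, which is required for complex I assembly, fell by 0.55 ± 0.08. The median differences of these lists were −0.12 and −0.19, beside 0.057 for the subunits themselves and −0.004 for all genes. By medium, the medians were −0.16, −0.19 and 0.094 in TiO2 control and −0.13, −0.31 and −0.003 in ZnO control for the same lists and the subunits, so that of the single media the subunit median lay above 0 in TiO2 control only.

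Regulators of mitochondrial biogenesis gave 0 of 20 higher and 8 lower, where 33.5% of all genes were called, among them the nuclear receptor ESRRA (−0.63 ± 0.12), the mitochondrial RNA polymerase POLRMT (−0.47 ± 0.11) and the ribosomal RNA methyltransferase TFB1M (−0.37 ± 0.08). Of these 20 regulators 1 was lower in TiO2 control medium alone (median −0.0) and 6 in ZnO control medium alone (median −0.25). Coenzyme Q synthesis and mobile carriers gave 1 of 14 higher (COQ10B, 0.92) and 5 lower, with PDSS1 at −0.90 and COQ9 at −0.76. In the tricarboxylic acid cycle 2 of 11 were higher and 4 lower, and the 4 were the 3 isocitrate dehydrogenase subunits IDH3A (−0.79), IDH3B (−0.52) and IDH3G (−0.41) and the succinyl-CoA ligase subunit SUCLG1 (−0.48). Mitochondrial import and folding gave 3 of 19 higher and 10 lower (TIMM8A, −1.09; TIMM13, −0.70). The list of nucleotide and phosphate carriers, which also holds other transporters, gave 3 of 9 higher and 1 lower. Its calls were the aspartate-glutamate carriers SLC25A12 (1.11) and SLC25A13 (−0.41) and the outer membrane channels VDAC1 (0.43) and VDAC2 (0.44). The adenine nucleotide carriers SLC25A4 (−0.20) and SLC25A5 (0.05) and the phosphate carrier SLC25A3 (0.12) did not pass.

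Genes linked to the hypoxic switch of respiration gave 5 of 10 higher and 1 lower, beside 14.6% and 18.9% of all genes. HIGD1A, a protein that associates with the respiratory chain at low oxygen, rose by 0.84 ± 0.06 and the angiogenic growth factor VEGFA by 0.49 ± 0.09, while PDK1, the kinase that restrains pyruvate dehydrogenase, fell by 0.68 ± 0.14. The other 4 genes of the list, LONP1 (0.17), MXI1 (0.12), LDHA (−0.05) and BNIP3L (0.02), did not pass. By medium the list gave 2 higher and 1 lower in TiO2 control, and 5 higher and 0 lower in ZnO control.

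Cell type markers moved in the same comparison. Of 13 enterocyte and epithelial markers 3 were higher and 6 lower in the chip, with sucrase-isomaltase SI at −3.36 ± 0.33 and villin VIL1 at −0.75 ± 0.07, and the keratin KRT18 at 0.56 ± 0.08. Their summed level lay at 14.01 to 14.13 on the log2 scale in Transwell TiO2 control and at 13.73 to 13.95 in chip TiO2 control, and at 14.09 to 14.12 against 13.67 to 13.83 in ZnO control. Of the 12 stromal, endothelial and immune markers 2 were higher (VIM, 1.26 ± 0.12; CD68, 0.64 ± 0.10) and 2 lower (LUM, −0.98; CD3E, −0.35). Their summed level was 11.16 to 11.23 and 10.83 to 10.94 in the Transwell controls and 11.20 to 11.99 and 11.27 to 11.63 in the chip controls. The part of these shifts in the members' differences was not tested.

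Between the Transwell control media, by contrast, biogenesis regulators gave 5 of 20 higher in ZnO control and 0 lower, where 2.88% of all genes were higher and 3.76% lower and 11.8% of the brighter genes were called. TEFM, the mitochondrial transcription elongation factor, rose by 0.79 ± 0.20 and TFAM, which packages and transcribes mitochondrial DNA, by 0.54 ± 0.15. Assembly factors of complexes II to V gave 5 of 29 higher and 0 lower, and the hypoxia list 0 higher and 3 of 10 lower (MXI1, −0.94 ± 0.12; BNIP3L, −0.73 ± 0.14; PDK1, −0.71 ± 0.20). Import and folding gave 3 of 19 higher and 0 lower, and coenzyme Q and mobile carriers 1 of 14 higher and 0 lower. Complex I assembly factors gave 1 of 18 higher and 1 lower. The tricarboxylic acid cycle gave 0 higher and 1 of 11 lower, and the list of nucleotide and phosphate carriers 0 higher and 1 of 9 lower. After ZnO in the chip 0 genes of these lists passed. In that comparison 14 of 18 complex I assembly factors lay below 0 (median −0.14), as did 17 of 29 of those of complexes II to V (−0.14) and 16 of 19 import and folding genes (−0.10), beside 50.0% of all genes. The counts below 0 were 8 of 14 for coenzyme Q and mobile carriers (−0.06) and 7 of 10 for the hypoxia list (−0.06). They were 6 of 11 for the tricarboxylic acid cycle (−0.04), 6 of 9 for the list of nucleotide and phosphate carriers (−0.04) and 11 of 20 for biogenesis regulators (−0.03).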

How the data were processed

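RNA of 31 Caco-2 samples was hybridised to Affymetrix arrays from 100 ng of total RNA. The authors deposited log2 values per probe set after RMA, per the submitters' processing notes. Which version, array software and build were used is not given in the sources used here. The method gives all arrays the same distribution, so that a shift common to all genes would not show. Of 53617 probe sets, 23871 named 1 gene, 1842 several and 27904 none. Only the first were used, and 22572 of them were matched by gene identifier to RefSeq for GRCh38.p14, whose symbols they were given. The brightest probe set stood for each of 22395 genes, and 632 genes had several. The rule matched 89 probe sets, of which 9 rows of assembly factors, 3 of pseudogenes and 2 of noncoding RNAs were left out, which left 75 for 74 members.

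One mean per group was fitted over all 8 groups with limma 3.58.1 in R 4.3.3 (lmFit and eBayes, 23 residual degrees of freedom), with Benjamini-Hochberg adjustment over all genes and a threshold of 0.05; the script was tested on simulated data. The number of arrays limits the precision. Members called in a comparison were named by size, up to 10 in each direction, or the 5 with the smallest p where fewer than 5 passed, besides complex II, the complex III core and complex IV paralogs; of each gene list, the 4 with the smallest p, or 2 in further comparisons. Members and lists were chosen with earlier results of these data known. Alternatives covered the variance prior, array weights, dim genes, the probe set per gene, centring, the replicate block, the arrays fitted and each array left out; the contrast over exposed arrays was added after seeing the data.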

Additional observations from a re-analysis of the deposited data

Results flagged for a closer look

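In groups of 4 arrays, 22 of 427 groups tested over 56 named members and the complexes held 1 array far from the other 3, about the 1 in 20 that chance gives. All are log2 values, with the range of the other 3 arrays in parentheses.

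In ATP synthase, chip ZnO replicate 3 was high in ATP5F1B at 11.8 (11.74 to 11.75), replicate 1 in ATP5MC2 at 4.04 (3.38 to 3.49) and replicate 2 in ATP5MC3 at 7.43 (7.11 to 7.14). Transwell ZnO control replicate 3 was high in ATP5MG at 6.56 (6.17 to 6.19) and Transwell TiO2 control replicate 1 in ATP5PO at 6.34 (6.07 to 6.11). The median deviation of complex V was high in Transwell ZnO replicate 4, at 0.091 (0.015 to 0.027), and that of complex II was low in chip ZnO control replicate 3, at −0.081 (0.031 to 0.048).

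In cytochrome c oxidase, COX4I1 was high in chip TiO2 replicate 4 at 11.1 (10.61 to 10.69). This array also stood apart over the genes brighter than the median single-gene probe set. COX4I2 was low in Transwell TiO2 control replicate 2 at 2.86 (3.85 to 4.03) and COX6A2 in Transwell ZnO replicate 3 at 3.18 (3.95 to 4.10). COX6B2 was high in chip ZnO replicate 3 at 3.69 (3.13 to 3.22) and COX7A2 in chip ZnO replicate 1 at 6.27 (5.94 to 5.97). COX8C was high in Transwell ZnO replicate 4 at 2.46 (1.85 to 1.90) and low in chip ZnO control replicate 2 at 1.68 (1.97 to 2.03).

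In complexes I and III, high arrays were chip TiO2 replicate 3 in NDUFA1 at 7.19 (7.04 to 7.06), Transwell ZnO replicate 1 in NDUFB3 at 6.24 (6.04 to 6.06), chip TiO2 control replicate 2 in NDUFS4 at 6.24 (5.98 to 6.03), chip ZnO replicate 4 in NDUFS5 at 6.74 (6.60 to 6.62) and Transwell ZnO replicate 1 in UQCR11 at 6.94 (6.64 to 6.69). Low arrays were chip TiO2 control replicate 1 in NDUFA3 at 5.11 (5.52 to 5.57), and chip ZnO control replicate 3 in NDUFA5 at 5.78 (all others at 5.84) and in NDUFV3 at 5.03 (5.36 to 5.38).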

How the results depend on the processing

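Most counts of members called stayed within 1.5 times their value under the alternatives. Fitting the arrays of a comparison alone gave 7 members between chip and Transwell in TiO2 control, 9 in ZnO control, 1 for the difference between the media and 6 between the Transwell control media. The difference between the media, 0 as reported, was called in 3 members with an intensity trend, 5 with array weights, 6 with dim genes left out and 3 without both chip TiO2 and chip TiO2 control replicate 4. The 10 members between the Transwell media became 18 with array weights and 17 with dim genes left out, and the 0 between the chip media became 1 without both arrays. With 1 array left out, counts ranged from 16 to 22 for the mean of both media, 9 to 17 in TiO2 control, 10 to 14 in ZnO control, 0 to 3 for the difference between the media, 3 to 8 between the Transwell media and 0 to 1 between the chip media, and were 0 for all exposure comparisons. Same-numbered replicates did not deviate together (correlations from −0.126 to 0.076), so the numbers were not taken as pairs; the replicate block gave 20 members for the mean of both media, 14 in TiO2 control, 12 in ZnO control, 1 for the difference between the media, 7 between the Transwell media and 0 elsewhere. Of the values of single named genes, 1692 kept their direction and side of the threshold, 187 lost the call, 26 gained it and 1 reversed: NDUFS4, between chip and Transwell in TiO2 medium, was −0.03 (adjusted p = 0.946) over exposed arrays. The cause of these shifts was not tested. For all genes, those called after ZnO in the chip ranged from 9 to 144 with 1 array left out. The rows used for the dim members (COX6A1, COX6B2, COX7B2, COX8C, ATP5MGL) lie near background in most groups.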
